A study of Dugesia japonica with 18 samples.

Results

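Zinc transporters are membrane proteins that move zinc ions into or out of the cytosol. Their mRNA was followed in Dugesia japonica, a planarian flatworm known for regrowing missing body parts, in head, trunk and tail pieces labelled with days 0, 1, 3, 5, 7 and 10. Each of the 18 libraries came from a pool of 10 to 20 animals, and no combination of fragment and day was repeated. The labels give no strain, genotype or treatment beyond the cut and do not say what day 0 is. Of 267235 assembled transcripts (unigenes), 17 had a best protein match in SwissProt named as a zinc transporter, and all 17 reached 1 CPM (a library's counts scaled to a common total) in at least 3 libraries. The 10 described here are the unigene matched to ZIP12 and 9 others, chosen by their counts summed over the libraries, the highest first. The last of these, ZIP3, had 6373 summed counts, and the first left out, a further match to ZIP10, had 6301. ZIP12 had 2047 summed counts and was selected on its known difference in level between fragments, so its fragment levels are a description without a test.

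A pair of protein families divides the work. ZIP proteins (the SLC39 family) bring zinc into the cytosol from outside the cell or out of organelles. Most ZnT proteins (the SLC30 family) take zinc out of the cytosol, across the cell membrane or into vesicles and organelles, while ZnT-9 in mammals exports it from mitochondria. Zinc holds together the folds of many transcription factors and sits in the active site of many enzymes, so both families are found throughout animals. The names below are those of vertebrate proteins, and 9 of the 10 members also match zinc transporter genes numbered in another planarian, Schmidtea mediterranea. ZIP12 was given no such match. Of the members, 5 are of the ZIP family and 5 of the ZnT family.

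Levels are TMM-scaled CPM, that is, CPM after a scaling that lines up the bulk of unigenes between libraries. Transcript lengths were not used here, so levels are compared between libraries of 1 unigene and never between unigenes. Fragment and day effects come from 1 model over all 18 libraries, tested with edgeR's quasi-likelihood test on 23616 unigenes with Benjamini-Hochberg adjustment at 0.05. In it the days stand in for repeats of a fragment and the fragments for repeats of a day, so p-values rest on how fragments and days deviate from the sum of both effects and not on repeat pools. Errors after ± are SE. Each library held between 17547716 and 21229980 counts; the floor of detection was set at 3 counts, or 0.107 to 0.252 CPM. A single unigene without a name took 41.2 to 49.6% of the counts in tail, 21.9 to 26.1% in trunk and 13.0 to 32.2% in head, where the lowest share was that of the day 1 library. In such pooled fragments, fewer cells of a type and less RNA per cell cannot be told apart.

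ZIP12 (TRINITY_DN17007_c0_g1), an importer studied in vertebrates mainly in the nervous system, was read almost only in trunk. Its lowest, median and highest levels over the 6 days were 12.8, 16.9 and 23.0 CPM in trunk, from 245 to 411 counts per library. In head they were 0.133, 0.265 and 0.499 CPM, from 3 to 14 counts, and in tail 0.162, 0.237 and 0.276 CPM, from 2 to 4 counts. Every trunk library lay far above every head and tail library, and head and tail overlapped near the floor of detection. Over the 6 days together, the level in trunk was 57.3 times that in head (95% interval 42.5 to 79.1) and 76.1 times that in tail (48.6 to 127). Head over tail was 1.33 (0.760 to 2.41), an interval that includes no difference. These exact intervals are of ratios of summed counts and cover counting error only. All 6 trunk libraries lay above the other libraries for 4.42% of all tested unigenes, a share given as background, since ZIP12 was chosen for this pattern.

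Over the days, ZIP12 in trunk went from 18.8 CPM on day 0 to its lowest level of 12.8 on day 5 and its highest of 23.0 on day 10. Head and tail on day 10 stood at 0.278 and 0.252 CPM, against 0.253 and 0.252 on day 0. These are 7 and 4 counts on day 10 and 6 and 3 on day 0, with overlapping counting intervals. The test of any day effect did not call it (adjusted p = 0.418), and neither did the test of a difference in slope between fragments (adjusted p = 0.907). At 2 to 14 counts per library, a change in head or tail would have to be large to be detected.

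The named unigenes most like ZIP12 across the 18 libraries, by Pearson's r of log2(CPM + 1) among 5523 compared, were Regulator of G-protein signaling 8 (r = 0.974), Ovotransferrin (0.973), Macrophage mannose receptor 1 (0.965), Hatching enzyme (0.957) and Tyrosine-protein phosphatase non-receptor type 20 (0.951). The libraries share fragments, so r mainly reflects trunk against the rest. By Spearman's rank correlation 0 of these 5 were among the 5 most alike. Levels in head and tail set them apart from one another. Ovotransferrin (TRINITY_DN6370_c0_g1), an iron-binding protein of birds, was read at 15.4 to 19.9 CPM in trunk and also at 3.11 to 5.52 in tail and 3.37 to 5.05 in head. Macrophage mannose receptor 1 (TRINITY_DN21581_c0_g1), a sugar-binding receptor of mammals, had 105 to 186 CPM in trunk. In head it had 0 or 1 count through day 5, 19 on day 7 and 49 on day 10. In tail it had 0 counts on days 0 and 3, 1 on day 1, 6 on day 5, 28 on day 7 and 108 on day 10. Hatching enzyme (TRINITY_DN7278_c0_g1), a zinc-dependent protease named for its role in fish and sea urchin hatching, had 0 counts in head on days 0, 1 and 3 and 11, 35 and 80 counts on days 5, 7 and 10. In tail its counts were 0 on days 0, 1 and 3 and 4, 25 and 67 on days 5, 7 and 10. So 2 of these 5 unigenes went in head and tail from 0 or 1 count on day 0 to 49 to 108 on day 10. ZIP12 went from 6 to 7 counts in head and from 3 to 4 in tail. The rest of the 5 had no such rise from 0 or 1 count between these days. Regulator of G-protein signaling 8 went from 23.7 to 21.6 CPM in head and from 21.2 to 17.98 in tail. Tyrosine-protein phosphatase non-receptor type 20 went from 30.2 to 24.3 CPM in head and from 31.9 to 19.9 in tail. Ovotransferrin went from 3.96 to 3.65 CPM in head and from 3.11 to 4.54 in tail. Trunk counts on day 10 were 1883 for Macrophage mannose receptor 1, 838 for Hatching enzyme and 411 for ZIP12. Counts are therefore read within each unigene and not between them. Whether the course of ZIP12 differed from theirs was not tested.

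**Figure D1:**
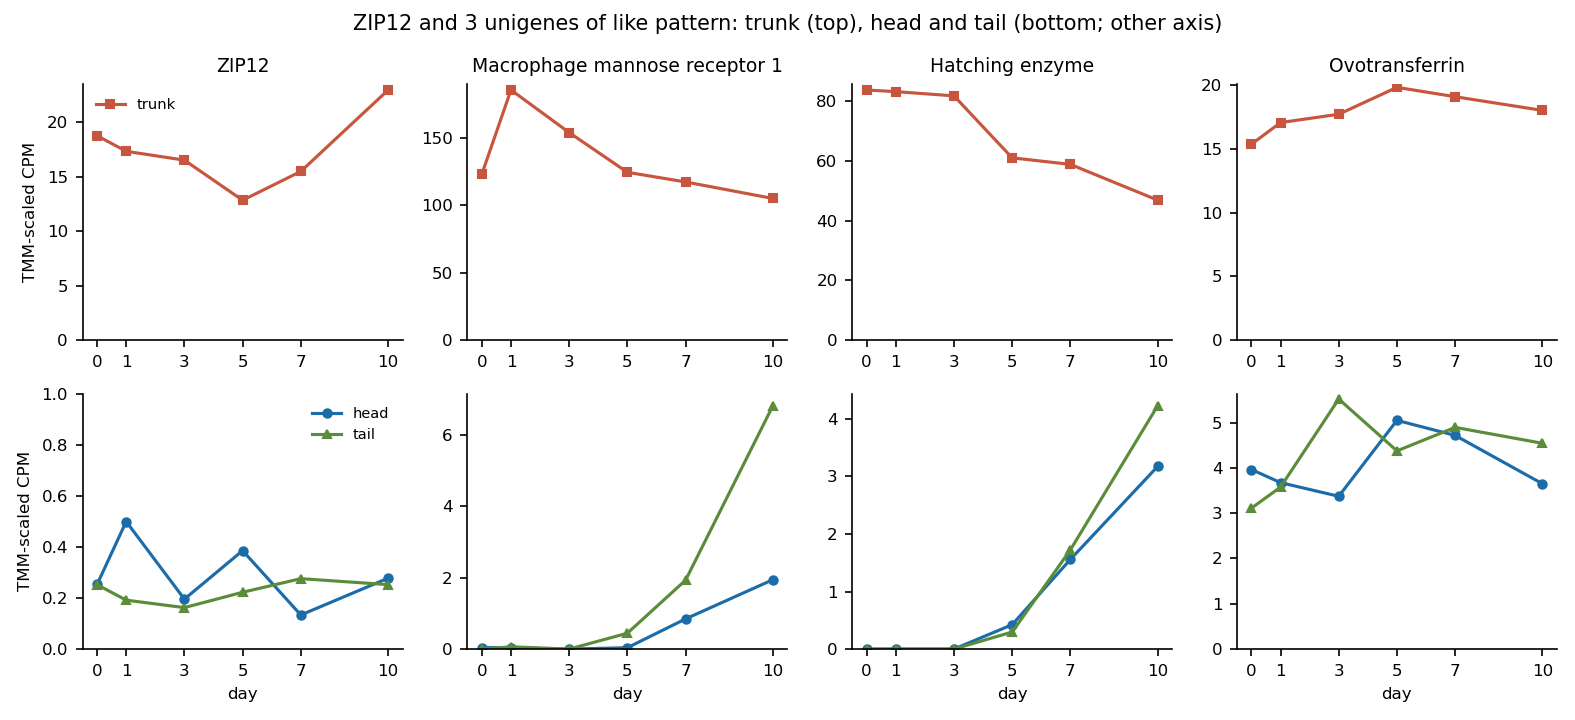
TMM-scaled CPM of ZIP12 and 3 unigenes of like pattern by day, in trunk (top row) and in head and tail (bottom row, on a smaller axis). Each point is 1 library. ZIP12 stays below 0.5 CPM in head and tail on all 6 days, whereas Macrophage mannose receptor 1 and Hatching enzyme have their highest values there on days 7 and 10.

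Of 4 markers of pharynx and glands, the summed level was 270 to 583 CPM in trunk, 84.6 to 455 in head and 122 to 228 in tail, with 0 of the 4 at 0 in any fragment. In trunk this sum was highest on day 0 and was 274 on day 10, when ZIP12 was at its highest. One of the 4 is the Macrophage mannose receptor 1 above. The part of such cells in the level of ZIP12 was not tested.

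ZIP1 (TRINITY_DN25992_c0_g1), which in mammals imports zinc across the cell membrane, was the other of the 10 members with a marked trunk excess. Its lowest, median and highest levels were 123, 153 and 252 CPM in trunk, 28.6, 36.5 and 59.6 in head, and 34.9, 52.4 and 75.8 in tail. All trunk libraries lay above all head and tail libraries, and the order of medians was trunk, tail, head. ZIP1 was lower in head than in trunk by log2 -2.10 ± 0.24 (adjusted p = 2.03e-05, lower on 6 of 6 days) and higher in trunk than in tail by 1.71 ± 0.24 (adjusted p = 0.000168, higher on 6 of 6 days). Head and tail did not differ beyond the error (log2 -0.40 ± 0.23, adjusted p = 0.198), though head was below tail on each day.

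The trunk excess of ZIP1 widened over the days. In trunk the level was 123 CPM on day 0, 131 on day 1, 134 on day 3, 252 on day 5, 172 on day 7 and 187 on day 10. In head it was 59.6, 51.4, 32.8, 40.1, 28.6 and 28.6 CPM on the same days, and in tail 75.8, 58.3, 58.3, 46.6, 34.9 and 41.1. Trunk was highest on day 5, while head and tail were highest on day 0. The ratio of day 10 to day 0 was 1.51 in trunk, 0.481 in head and 0.543 in tail. The ratio of trunk to head went from 2.07 on day 0 to 6.29 on day 5 and 6.52 on day 10, and that of trunk to tail from 1.63 to 5.42 and 4.54. Slopes of log2 CPM over log2(day + 1) were -0.32 in head, 0.22 in trunk and -0.28 in tail, in log2 units per doubling of day + 1. In edgeR's test slopes differed between fragments (adjusted p = 0.00147). ZIP1 was the 1 member of 10 called in this test, against 3.04% of all tested unigenes. With days 0 to 3 alone the difference of head against trunk was log2 -1.44, and with days 5 to 10 alone it was -2.65.

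**Figure D2:**
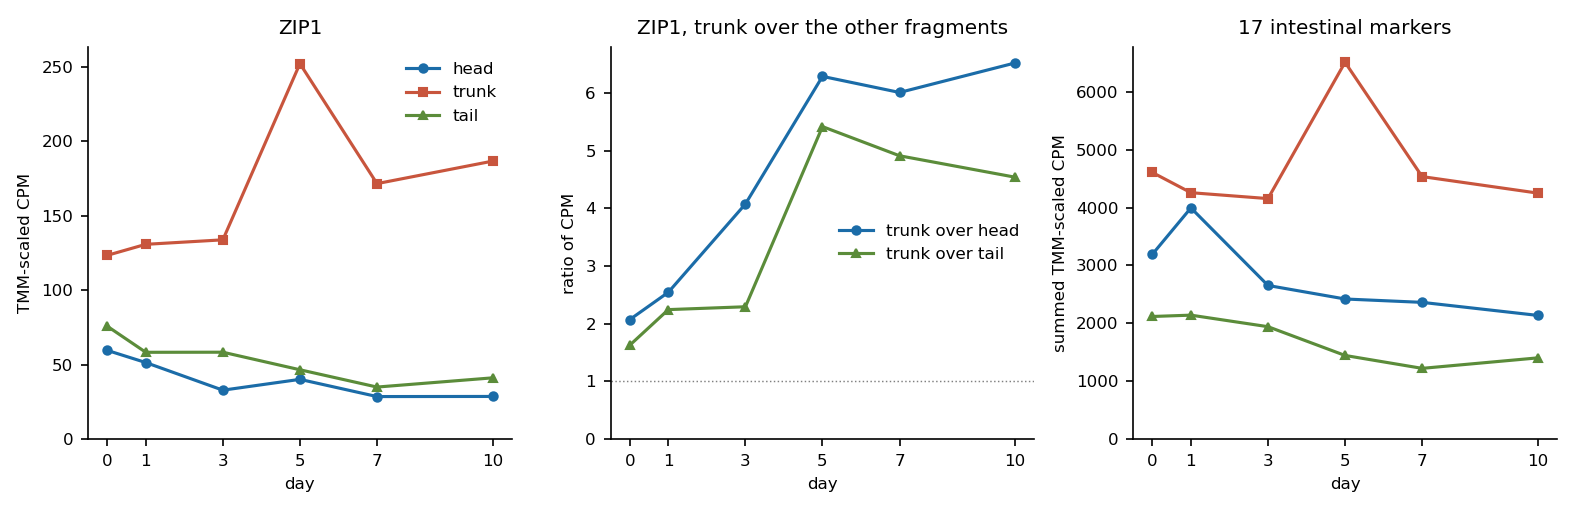
ZIP1 by day in TMM-scaled CPM (left), its ratio of trunk to head and of trunk to tail (middle) and the summed CPM of the 17 tested intestinal markers (right), 1 library per point. The ratio to head goes from 2.07 to 6.52, and both ZIP1 and the marker sum have their highest trunk value on day 5.

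Markers of the intestine, the branched gut that runs through planarian fragments, had their highest summed level in trunk. Of 22 matched by name 17 were tested, and their summed level was 4156 to 6511 CPM in trunk, 2137 to 3995 in head and 1222 to 2142 in tail. Of the 17, 15 were higher and 1 lower in trunk than in tail, and 7 were lower and 4 higher in head than in trunk. Of all tested unigenes, 18.3% were higher and 18.4% lower in the first comparison, and 22.7% lower and 19.6% higher in the second. None was at 0 in all libraries of a fragment. In trunk the marker sum was 4156 on day 3, 6511 on day 5 and 4536 on day 7, a peak on the same day as that of ZIP1. In head and tail it ended at 2137 and 1403 on day 10, from 3193 and 2118 on day 0. Head held more of these markers than tail on every day, whereas ZIP1 read lower in head than in tail on every day. The part of intestinal cells in the level of ZIP1 was not tested.

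Most alike to ZIP1 in pattern, chosen after its values were seen, was Copper-transporting ATPase 2 (TRINITY_DN7231_c0_g1; Pearson's r = 0.983 and Spearman's rho = 0.959 over 18 libraries), a pump that in mammals moves copper into bile and onto copper proteins. It too had its highest level in trunk on day 5, at 138 CPM, against 45.4 on day 0 and 64.2 on day 10. In head and tail it went from 18.3 and 21.2 CPM on day 0 to 8.37 and 8.96 on day 10. The next were Serine/threonine-protein kinase STE20 (r = 0.979), 2-aminomuconic semialdehyde dehydrogenase (0.974), Neutral ceramidase (0.972) and the type II regulatory subunit of cAMP-dependent protein kinase (0.970). By rank correlation, 4 of these 5 were again among the 5 most alike.

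Besides the member, 2 other unigenes were named ZIP1, with 2817 and 988 summed counts and each matched to another Schmidtea mediterranea gene. Reads may be shared between close copies, so their separate levels are uncertain. TRINITY_DN243_c0_g1 was likewise highest in trunk (2.25 to 8.17 CPM, against 0.717 to 2.77 in head and 0.672 to 5.03 in tail). It rose from day 0 by log2 1.82 ± 0.34 on day 3 (adjusted p = 0.0122) and 1.98 ± 0.33 on day 5 (adjusted p = 0.00348), in all 3 fragments. TRINITY_DN24149_c0_g1 fell from day 0, by 1.23 ± 0.25 on the log2 scale on day 10 (adjusted p = 0.0249). It too was lower in head than in trunk (log2 -0.90 ± 0.18, adjusted p = 0.000557) and higher in trunk than in tail (0.59 ± 0.18, adjusted p = 0.0169), as was TRINITY_DN243_c0_g1 (-1.50 ± 0.21, adjusted p = 2.69e-05, and 1.14 ± 0.22, adjusted p = 0.000804). Differences in course between unigenes were not tested.

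The other ZIP members showed smaller differences between fragments. ZIP3 (TRINITY_DN16817_c0_g1), an importer of the cell membrane in mammals, had lowest, median and highest levels of 18.6, 22.5 and 28.3 CPM in tail, 15.5, 17.4 and 19.2 in trunk and 14.0, 17.5 and 18.9 in head. Tail was above both others on 6 of 6 days, with slightly overlapping ranges. ZIP3 was lower in head than in tail by log2 -0.41 ± 0.08 (adjusted p = 0.000748) and lower in trunk than in tail by -0.38 ± 0.08 (adjusted p = 0.00162), and head and trunk did not differ beyond the error (-0.03 ± 0.08, adjusted p = 0.831). SLC39A7 (ZIP7, TRINITY_DN28109_c1_g1), which in mammals lets zinc out of the endoplasmic reticulum, had 45.6, 49.4 and 66.2 CPM in head, 49.1, 66.8 and 72.3 in trunk and 52.5, 59.4 and 70.4 in tail. It was lower in head than in trunk on 6 of 6 days (log2 -0.31 ± 0.09, adjusted p = 0.0139), although the ranges overlapped.

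ZIP10 (TRINITY_DN3631_c0_g1), an importer of the cell membrane in vertebrates, was the member with the smallest adjusted p for an effect of day. In trunk it was read at 23.2, 24.0, 24.6, 38.9, 22.5 and 16.7 CPM on days 0, 1, 3, 5, 7 and 10. In head the values were 19.6, 24.0, 14.6, 26.9, 14.7 and 12.8 CPM, and in tail 30.7, 22.2, 21.3, 28.2, 22.8 and 11.7. Day 5 was the highest in trunk and head and the next to highest in tail, and day 10 was the lowest in all 3 fragments. An effect of day was called (adjusted p = 0.0099), and on day 10 ZIP10 had fallen by 0.82 ± 0.18 on the log2 scale from day 0 (adjusted p = 0.031, lower in 3 of 3 fragments). The any day call held in 7 of 11 alternatives (adjusted p up to 0.476) and the day 10 call in 6 of 11 (adjusted p up to 0.752). Both were lost without the head libraries and without the tail libraries. So were most such calls over all 23616 tested unigenes. Any day calls went from 1377 to 210 without head and 33 without tail, and day 10 calls from 300 to 109 and 3. The day 5 value was not called (log2 0.36 ± 0.17, adjusted p = 0.251). Between fragments, ZIP10 was lower in head than in trunk by log2 -0.42 ± 0.12 (adjusted p = 0.0111, on 5 of 6 days).

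Among the ZnT members, ZnT-2b (TRINITY_DN9862_c0_g1) was the most clearly lower in head. ZnT-2 loads zinc into vesicles of secretory cells in mammals, and this name was given to 2 members, called ZnT-2a and ZnT-2b here, which match different Schmidtea mediterranea genes. ZnT-2b had lowest, median and highest levels of 20.9, 26.3 and 34.6 CPM in head, 31.7, 38.4 and 41.0 in trunk and 32.9, 40.9 and 44.7 in tail. Head was the lowest fragment on 6 of 6 days, with ranges that overlapped slightly. It was lower in head than in tail by log2 -0.55 ± 0.08 (adjusted p = 3.01e-05) and than in trunk by -0.47 ± 0.08 (adjusted p = 0.000115). ZnT-2a (TRINITY_DN19085_c0_g1) had 23.8, 31.7 and 37.2 CPM in head, 32.7, 36.6 and 39.05 in trunk and 28.2, 38.5 and 46.1 in tail. Head was below tail on 6 of 6 days (log2 -0.26 ± 0.09, adjusted p = 0.023) and below trunk on 5 of 6 (-0.22 ± 0.08, adjusted p = 0.049), again with overlap.

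Both ZnT-2 unigenes read lower on day 10 than on day 0 in each fragment. ZnT-2b in head was read at 29.0, 30.7, 34.6, 22.9, 23.7 and 20.9 CPM on the 6 days, and in tail it went from 44.7 on day 0 to 32.9 on day 10. ZnT-2a went from 37.2 to 23.8 CPM in head, from 46.1 to 28.2 in tail and from 37.5 to 33.6 in trunk between the same days. For ZnT-2b an effect of day was called (adjusted p = 0.0392), while its day 10 value alone was not (log2 -0.39 ± 0.11, adjusted p = 0.0967). The call for any day held in 2 of 11 alternatives, with adjusted p from 0.00543 to 1, and without the head day 1 library it was 0.0519. For ZnT-2a neither was called (any day adjusted p = 0.0758, day 10 log2 -0.50 ± 0.12, adjusted p = 0.0517). Their log2 levels correlated at r = 0.868 over the 18 libraries, which share fragment, day and scaling.

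The remaining ZnT members varied less. ZnT-1 (TRINITY_DN2115_c0_g1), which in mammals passes zinc out through the cell membrane, had 23.6, 27.8 and 30.4 CPM in head, 25.8, 34.8 and 39.6 in trunk and 24.5, 28.0 and 36.4 in tail. Its lowest value in each fragment was that of day 0. It was lower in head than in trunk on 6 of 6 days (log2 -0.27 ± 0.09, adjusted p = 0.0156), and its day 3 value, log2 0.44 ± 0.12 from day 0, was not called (adjusted p = 0.1). ZnT-9 (TRINITY_DN1656_c2_g1), which in mammals exports zinc from mitochondria, had 40.01, 43.4 and 46.4 CPM in trunk, 45.6, 50.3 and 67.8 in tail and 37.3, 49.7 and 53.6 in head. Trunk was below tail on 6 of 6 days (log2 -0.26 ± 0.09, adjusted p = 0.0262), with a small overlap. ZnT-5 (TRINITY_DN1790_c0_g1), which in mammals carries zinc into the early secretory pathway, stayed between 24.1 and 32.0 CPM in all 18 libraries and was called in 0 of 10 edgeR tests, in 0 at an unadjusted p under 0.05 and in 0 by DESeq2. With TMM the largest of its fragment differences was log2 0.10 ± 0.08, for trunk against tail (adjusted p = 0.363). With library totals edgeR called ZnT-5 higher in head than in tail by 0.78 (adjusted p = 6.63e-06) and than in trunk by 0.28 (adjusted p = 0.0371). It was then also higher in trunk than in tail, by 0.50 (adjusted p = 0.00106). Without the most abundant unigene in the totals, head was higher than tail and than trunk by 0.34 (adjusted p = 0.00464 and 0.00313). Both scalings shift all unigenes together.

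**Figure D3:**
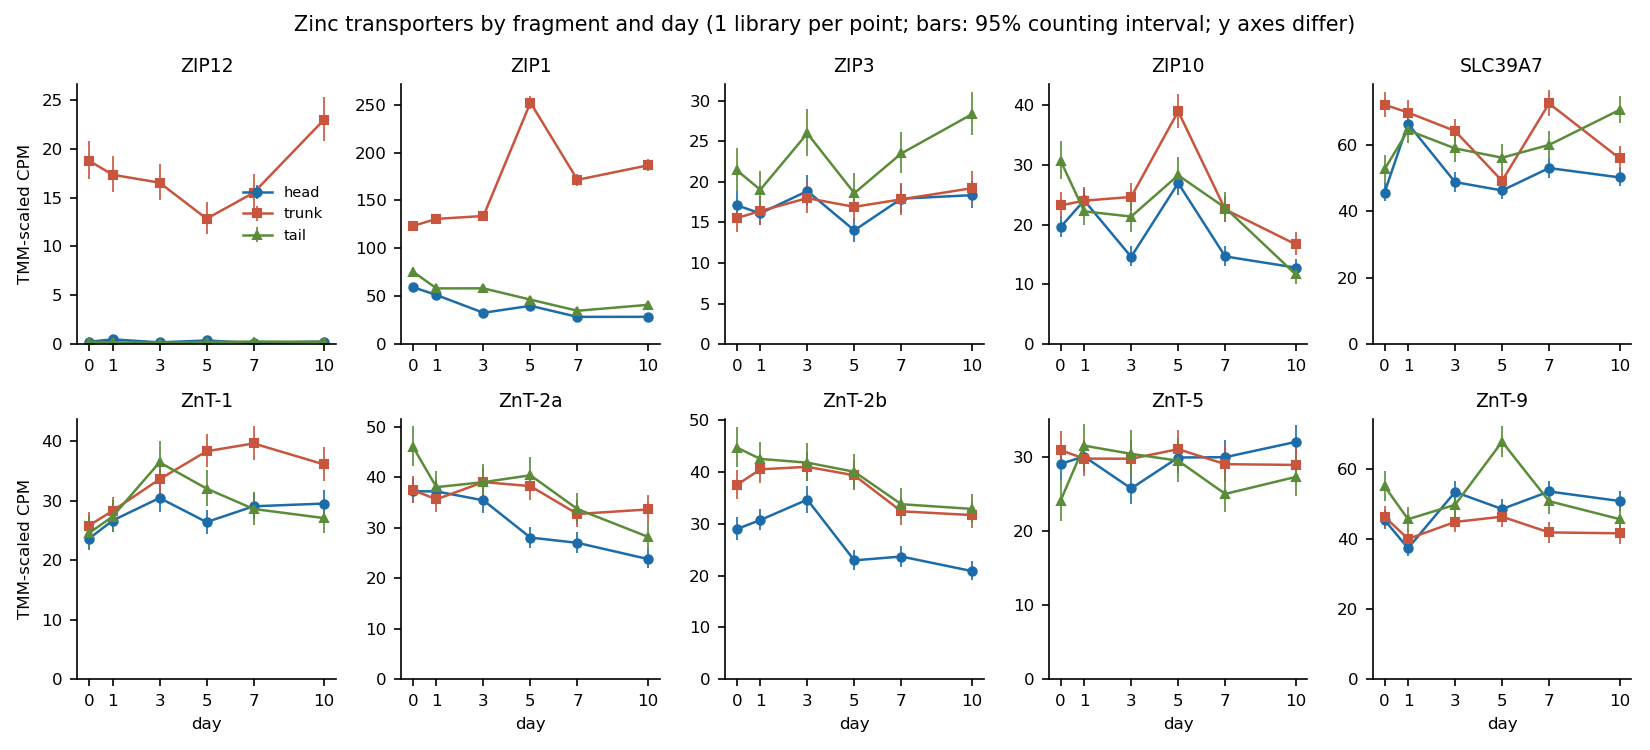
TMM-scaled CPM of the 10 zinc transporters by day in head, trunk and tail, 1 library per point, with bars for the 95% counting interval. ZIP12 and ZIP1 stand higher in trunk on all days, ZIP10 peaks on day 5 in trunk and head, ZnT-2b is lowest in head throughout, and ZnT-5 lies between 24.1 and 32.0 CPM.

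Counted over the 9 members other than ZIP12, 6 were lower in head than in trunk and 0 higher, by edgeR. Of all tested unigenes 42.3% were called in this comparison, 22.7% lower in head and 19.6% higher. At an unadjusted p under 0.05 the members' counts were again 6 and 0, and DESeq2 called 5, none higher. Against tail, 3 members were lower in head and 0 higher, where 39.2% of all tested unigenes were called, 19.6% lower in head and 19.5% higher. The count at an unadjusted p under 0.05 was 5, and 4 by DESeq2, in each case 0 higher. Between trunk and tail 1 member was higher in trunk and 2 lower, where 36.7% of all tested unigenes were called, 18.3% higher in trunk and 18.4% lower. The 9 had a median log2 difference of -0.27 between head and trunk, -0.26 between head and tail and 0.08 between trunk and tail. Over all tested unigenes these medians were 0.00017, 0.02 and -0.0053. Of the 7 zinc transporters left out, 3 were lower in head than in trunk and 0 higher. Against tail, 1 of these 7 was higher in head and 0 lower, and 3 were higher and 1 lower in trunk. That higher in head was the further match to ZIP10 (TRINITY_DN1161_c0_g1), by log2 0.52 ± 0.14 (adjusted p = 0.00566, on 6 of 6 days). So the 0 higher in head than in tail holds for the 9 members and not for all 17. Nothing particular to the zinc transporters is read from such counts.

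These counts are sensitive to single libraries and to scaling. Head against tail gave 5 lower members without the head day 1 library, and also 5 without all of day 1. Of all 23616 tested unigenes, 4637 were lower in the main fit, 4438 without that library and 4297 without day 1. Head against trunk gave 3 without day 7, where the 5360 lower of all tested unigenes became 4661. Trunk against tail gave 1 lower without day 0, day 5 or day 7, where the 4338 of all became 3652, 3686 and 3449. It gave 2 higher without day 3, where the 4323 of all became 3630. With library totals in place of TMM, the median of all tested unigenes shifted by 0.70 (head and tail), 0.31 (head and trunk) and 0.40 (trunk and tail). Without the most abundant unigene in the totals, it shifted by 0.26, 0.36 and -0.11. Under library totals 7 of the 12 called differences changed sign, and under totals without that unigene 3 did, whereas the trunk excess of ZIP1 kept its direction and its call under each scaling tried. Taken relative to the shifted median, 0 of the 12 changed sign, a count that removing a common shift largely fixes.

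**Figure D4:**
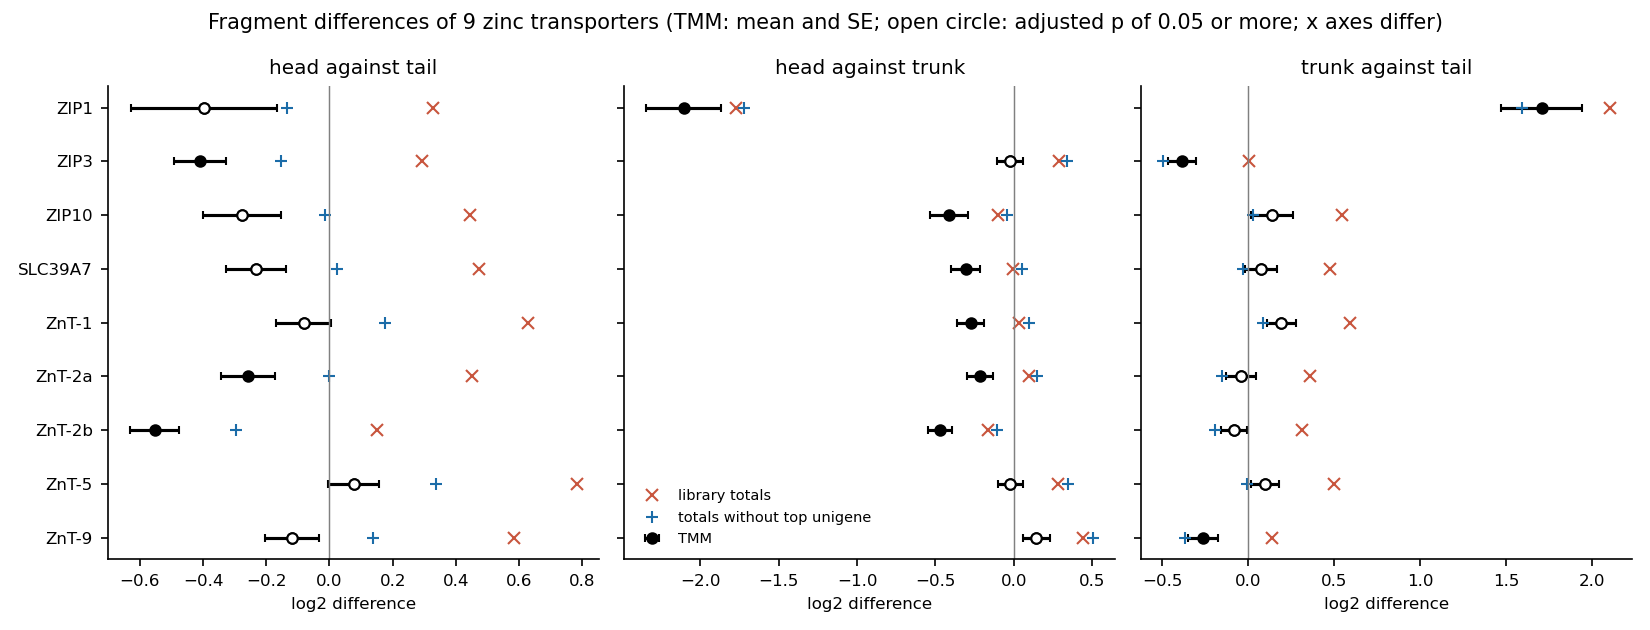
Log2 differences of the 9 members between fragments under 3 scalings: TMM (circles with SE, filled where adjusted p was under 0.05), library totals (crosses) and totals without the most abundant unigene (plus signs). Those of ZIP1 that involve trunk are the only called ones beyond 1 log2 unit under all 3, and the others lie within 1 of 0 and move with the scaling.

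Over the days, 2 of the 10 members were called for any day effect, ZIP10 and ZnT-2b, where 5.83% of all tested unigenes were called. On day 10 against day 0 it was 1 member, lower, where 1.27% of unigenes were called and 0.889% were lower. On days 1, 3, 5 and 7 edgeR called 0 members, where 0.407, 1.32, 5.45 and 1.22% of unigenes were called. At an unadjusted p under 0.05 these days gave 0, 1, 1 and 3 members, and DESeq2 called 0 on each. For any day these counts were 5 unadjusted and 3 by DESeq2, and for day 10 they were 5 and 2. Of all 23616 tested unigenes, DESeq2 called 2821 for any day and 934 on day 10. Without the head day 1 library, 1 member was called for any day effect and 2 on day 10, where 1268 and 385 of all were called.

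Markers of other cell types also differed between fragments. Of 59 tested neuronal markers, 39 were higher and 6 lower in head than in tail, with a summed level of 1645 to 2042 CPM in head, 807 to 996 in trunk and 939 to 1431 in tail. Of 19 tested muscle markers, 11 were lower and 2 higher in head than in tail, with sums of 5549 to 8337 CPM in head, 9511 to 12779.5 in trunk and 10274 to 14757 in tail. Of 54 tested markers of ciliated epidermis, 28 were lower in head than in tail, with sums of 1902 to 3098 CPM in head, 2381 to 3459 in trunk and 2638 to 4777 in tail. Of 15 tested markers of protonephridia, the excretory tubules, 10 were higher and 3 lower in head than in tail, with sums of 504 to 680 CPM in head, 398 to 462 in trunk and 372 to 482 in tail. Of 14 tested markers of neoblasts, the planarian stem cells, 7 were lower in head than in trunk and 5 higher in trunk than in tail, with sums of 446 to 798 CPM in head, 615 to 1039 in trunk and 469 to 705 in tail. The shares of all tested unigenes are those given above for the members. None of these markers was at 0 in all libraries of a fragment, and their part in the head values of the zinc transporters was not tested.

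Of the wider zinc machinery, no metallothionein and no metal regulatory transcription factor was named among the tested unigenes. The zinc handling list held 4 tested unigenes, 2 named Metal cation symporter ZIP14, an importer of zinc, iron and manganese in mammals, and 2 named Metal tolerance protein 11, a manganese transporter of plants. The ZIP14 unigene TRINITY_DN5044_c0_g1 averaged 15.1 CPM in trunk, 8.62 in head and 8.21 in tail. Its ranges overlapped, at 8.75 to 19.0 CPM in trunk, 6.59 to 11.9 in head and 5.58 to 11.7 in tail. An effect of day was called (adjusted p = 0.0291), and on day 5 it had fallen by 0.99 ± 0.18 on the log2 scale from day 0 (adjusted p = 0.00535). It was lower in head than in trunk by log2 -0.80 ± 0.12 (adjusted p = 4.9e-05) and higher in trunk than in tail by 0.88 ± 0.13 (adjusted p = 5.25e-05). The second, TRINITY_DN8060_c0_g1, was also higher in trunk, by 0.80 ± 0.18 against tail (adjusted p = 0.00207) and with -0.56 ± 0.16 for head against trunk (adjusted p = 0.0104). Both ZIP14 unigenes were thus higher in trunk, as was ZIP1. Of the Metal tolerance protein 11 unigenes, TRINITY_DN5512_c0_g1 was higher in head than in trunk, by 0.37 ± 0.11 (adjusted p = 0.0155), and than in tail, by 0.34 ± 0.12 (adjusted p = 0.0294). Its trunk and tail did not differ beyond the error (-0.03 ± 0.12, adjusted p = 0.86). TRINITY_DN5512_c0_g2 was read at 1.05 CPM on average in head, 1.41 in trunk and 0.303 in tail. It was called higher in trunk than in tail (adjusted p = 0.0186), but each fragment had libraries at 0, so no fold is given. A list of zinc-binding enzymes, matched by name alone, held 17 tested unigenes. Of these, 5 were higher and 6 lower in head than in tail, 4 higher and 7 lower in head than in trunk and 6 higher and 4 lower in trunk than in tail, where 39.2, 42.3 and 36.7% of all tested unigenes were called. The 17 include Carbonic anhydrase-related protein 10 and Carbonic anhydrase-related protein 11, whose zinc binding was not checked. These were called higher (log2 0.89) and lower (-0.59) in head than in tail.

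Of 29 tested transporters of other metals, 12 were lower and 4 higher in head than in tail, with the same counts against trunk, and 8 were higher and 13 lower in trunk than in tail. Over all tested unigenes the shares were 19.6% lower and 19.5% higher, 22.7% and 19.6%, and 18.3% higher and 18.4% lower in the same order, and no difference between the list and the rest was tested. Ovotransferrin, described above, was higher in trunk than in tail by log2 2.05 ± 0.12 (adjusted p = 9.7e-09). The others with the smallest adjusted p were 5 channels of the TRPM family, which carry calcium, magnesium and in some cases zinc. Of these, 3 named Transient receptor potential cation channel subfamily M member 3 were lower in head than in tail by log2 -1.81 ± 0.12 (TRINITY_DN7299_c0_g1, adjusted p = 2.59e-08), -1.73 ± 0.13 (TRINITY_DN19686_c0_g1, adjusted p = 5.13e-08) and -1.52 ± 0.12 (TRINITY_DN19686_c0_g3, adjusted p = 6.64e-08), the latter pair from 1 assembled cluster. The member 7 unigene (TRINITY_DN16344_c0_g1) was lower in head by -1.28 ± 0.12 (adjusted p = 4.42e-07). The member-like 2 unigene (TRINITY_DN1419_c0_g3) differed from these in being lower in trunk than in both others, by -1.27 ± 0.13 against tail (adjusted p = 2.53e-06).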

How the data were processed

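The submitters' processing notes name FastQC, fastp 0.20.0, Bowtie2 and RSEM. Per the file headers, the values the authors deposited for the 18 libraries are raw counts for each unigene, beside protein database descriptions; log-scaled columns were not used here. The counts are whole numbers, so RSEM estimates may have been rounded before deposit. Members and gene lists were chosen with earlier results of these data known. Members match the recommended SwissProt name, and lists match names of proteins, cell types by textbook markers. The rule for named genes took all members, the 6 genes of smallest adjusted p between fragments from the zinc handling and metal lists, and the 5 most like ZIP12. The 4 zinc handling unigenes, the 5 most like ZIP1 and the 2 further ZIP1 unigenes fall outside it and were chosen after their values were seen.

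From the counts, the 23616 unigenes that reached 1 CPM in 3 or more libraries (98.3 to 99.3% of counts) were fitted with fragment plus day in edgeR 4.0.16 (limma 3.58.1, R 4.3.3; robust, TMM factors 0.679 to 1.51, 10 residual degrees of freedom). A second fit added slopes over log2(day + 1) (8 residual degrees of freedom). DESeq2 1.42.0, other scalings, filters and parts of the libraries were alternatives. Counting intervals are exact Poisson intervals at 95%. Python 3.11.15, pandas 2.3.3, data.table (version 1.17.8) and matplotlib 3.10.9 were used for tables and figures.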

Additional observations from a re-analysis of the deposited data

Results flagged for a closer look

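The course of ZIP1 over the days differed between fragments. Slopes over log2(day + 1) differed by an F test in edgeR (adjusted p = 0.00147), with a slope of 0.22 in trunk against -0.32 in head and -0.28 in tail. The level went from 123 CPM on day 0 to 187 on day 10 in trunk, from 59.6 to 28.6 in head and from 75.8 to 41.1 in tail.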

How the results depend on the processing

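The trunk excess of ZIP1 kept its direction and call under all 16 alternatives tried, at log2 -2.65 to -1.44 for head against trunk and 1.02 to 2.30 for trunk against tail, and its slope difference under all 7 (adjusted p = 3.19e-10 to 0.00376). The counts of called members moved more. For head against tail, the 0 higher and 3 lower became 7 and 0 with library totals. With totals without the most abundant unigene they were 1 and 1. Of all 23616 tested unigenes, 4614 were higher and 4637 lower in the main fit. With library totals these were 16153 and 1120, and with totals without that unigene 8458 and 2564. The lower member count was 1 with days 0 to 3 alone (3325 of all) and 1 with no filter (3495 of 244611). It was 5 without the head day 1 library (4438 of all) and 2 to 5 when each day was left out (3961 to 4297). For head against trunk, the 0 higher and 6 lower became 3 and 1 with library totals and 3 and 1 with totals without that unigene. Over all tested unigenes the 4620 higher and 5360 lower became 9090 and 2585, and 10952 and 2482. The lower member count was 1 with days 0 to 3 alone (3244 of all). It was 3 with no replicate block (day left out of the fit, 4655 of all) and 3 to 6 when each day was left out (4601 to 5251). For trunk against tail, the 1 higher and 2 lower became 7 and 0 with library totals, where the 4323 and 4338 of all tested unigenes became 9692 and 1125. There the lower member count was 1 with days 0 to 3 (2500 of all), 1 with days 5 to 10 (3243) and 0 with no filter (2643 of 244611). It was 1 with no replicate block (3681) and 1 to 2 when each day was left out (3449 to 4180). The higher count was 2 with days 5 to 10 (3206) and 1 to 2 when each day was left out (3489 to 4118). For any day the 2 became 1 with DESeq2 size factors, library totals, no filter, without the head day 1 library and without trunk. Over all tested unigenes the 1377 became 1276, 1041, 4357 (of 244611), 1268 and 1144, in the same order. The member count was 0 without the fragment block, without head and without tail, where 25, 210 and 33 of all 23616 were called. On day 5 the 0 became 1 with a 5 CPM filter, with totals without the top unigene and without trunk. There the 1287 of all tested unigenes became 1303 (of 13476), 1017 and 1059. On day 7 the 0 became 1 with those totals and without trunk, where the 288 of all became 234 and 353. On day 10 the 1 became 2 with the DESeq2 test, the 5 CPM filter, without the head day 1 library and without trunk. There the 300 of all tested unigenes became 934, 361 (of 13476), 385 and 519. The 1 became 0 with library totals, without the fragment block, without head and without tail, where 113, 1, 109 and 3 of all were called.

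Signs changed with scaling. With library totals, head against tail was log2 0.29 for ZIP3, 0.45 for ZnT-2a and 0.15 for ZnT-2b, head against trunk 0.034 for ZnT-1 and 0.094 for ZnT-2a, and trunk against tail 0.0070 for ZIP3 and 0.14 for ZnT-9. With totals without the most abundant unigene, head against trunk was 0.053 for SLC39A7, 0.093 for ZnT-1 and 0.15 for ZnT-2a. These totals shift all unigenes together, as given above. Other causes were not tested. The called differences of members other than ZIP1 kept their calls in only part of the 16 alternatives. For head against tail it was 15 for ZnT-2b, 12 for ZIP3 and 8 for ZnT-2a. For head against trunk it was 13 for ZnT-2b, 11 for ZIP10, 10 for SLC39A7, 9 for ZnT-1 and 4 for ZnT-2a. For trunk against tail it was 14 for ZIP3 and 8 for ZnT-9. A wider match on protein names gave 21 tested zinc transporters in place of 17. Labels number each fragment and day once, so no repeat pools could be blocked. Depth limits ZIP12 in head and tail, at 2 to 14 counts.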
